A study of Mus musculus with 4 samples.

Results

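The cells described here carried RNA of Olig2, a basic helix-loop-helix (bHLH) transcription factor, in single-cell RNA-seq of the mouse cerebellum at E14.5 (embryonic day). They were chosen by their own UMI counts (unique molecular identifiers, each standing for 1 captured RNA molecule), so the genes of the rule are no finding. Barcodes were kept if they had 500 genes or more, 1000 UMIs or more, and mitochondrial genes made up no more than 10% of the UMIs. A kept cell was counted as a member with at least 1 Olig2 UMI, no UMI of Tbr1 or Lmx1a, and at most 1 UMI summed over the cell cycle genes Mki67, Top2a, Cenpf, Ube2c, Cdk1 and Birc5. This gave 476 members among 12546 kept cells: 73 of 2911 in control 1, 280 of 3931 in control 2, 64 of 2007 in CKO 1 and 59 of 3697 in CKO 2, where the number is the replicate. The control groups had the genotype Atoh1-Cre/+; R26LSL-tdT/+. The conditional knockout (CKO) groups carried En1lox/lox and En2lox/lox besides Atoh1-Cre/+ and R26LSL-tdT/+, so that both Engrailed genes are targeted in cells in which Atoh1-driven Cre was active. Both genotypes carried 1 Cre allele and the tdTomato reporter (tdT), and tdT-positive cells were sorted by flow cytometry before 10x Genomics 3′ capture. The tdT label marks the Atoh1 lineage, so cells of other lineages are not covered. The comparison of genotypes within these cells asks which of their genes and what share of cells differed after loss of both Engrailed genes. Animals were pooled in each library, so the libraries are the replicates (2 per genotype). Between genotypes, p-values measure a difference against the spread between these pools. Where classes of cells were compared within libraries, p-values measure it against how far the class difference varied from library to library.

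Atoh1-positive progenitors of the rhombic lip give rise to the glutamatergic cells of the cerebellum: granule cells, excitatory neurons of the cerebellar nuclei and unipolar brush cells. Excitatory nuclei neurons leave the rhombic lip first and send their axons out of the cerebellum, many of them across the midline. Olig2 is best known for its roles in motor neuron progenitors and oligodendrocytes, and is also expressed in progenitors of the cerebellar ventricular zone. Robo3 is a divergent Roundabout receptor that allows commissural axons to cross the midline, and somatostatin, encoded by Sst, is a neuropeptide.

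The libraries held 14998150 to 33709450 UMIs, and the median depth of kept cells was 2734, 2122, 5352 and 5544 UMIs in control 1, control 2, CKO 1 and CKO 2. Control 2 stood apart: it supplied 280 of the 476 members, and the cells with at least 2 UMIs of Meis2, a homeodomain factor of nuclei neurons, that passed the same gates without Olig2 made up 36.0% of its kept cells, against 14.2%, 19.98% and 8.39% in control 1, CKO 1 and CKO 2. Any pair of libraries shared 1 to 6 cell barcodes. The pools also differed in sex: Xist was at 0 CPM (a gene's UMIs scaled to a total of 1000000 in the summed cells) in the members of control 1, and at 1863, 1194 and 389 CPM in those of control 2, CKO 1 and CKO 2.

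Membership rested on few molecules. Olig2 was seen as 1 UMI in 357 members, as 2 UMIs in 69 and as 3 or more in 50, with a maximum of 17. Of 759 kept cells with Olig2, 283 were outside the rule, 38 of them with Tbr1, 55 with Lmx1a and 215 with 2 or more cell cycle UMIs. The median depth of members was 3208, 2497, 5641 and 10564 UMIs in control 1, control 2, CKO 1 and CKO 2, above that of the other kept cells in each library (2714, 2093, 5338 and 5429), and the part of depth in membership was not tested. By a simulated-doublet score 5 of the 476 members were doublet candidates, and 1 member, in control 2, carried microglia genes.

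The label of these cells as Robo3 and Sst neurons held for part of them. Both genes were seen in 130 members, Robo3 alone in 153, Sst alone in 37 and neither in 156. UMIs of Sst were found in 51.6%, 42.8%, 53.5% and 48.3% of members with Robo3 in control 1, control 2, CKO 1 and CKO 2, and in 14.3%, 28.0%, 4.76% and 6.67% of those without. The median depths were 3526, 2760, 5715 and 4304 UMIs with Robo3 and 2960, 1972, 4130 and 11598 UMIs without, so that the order of depth was reversed in CKO 2. At least 2 UMIs of the granule lineage genes Atoh1, Barhl1, Pax6, Neurod1 and Tlx3 were present in 188 members, which is 60.3% of members in control 1, 26.1% in control 2, 50% in CKO 1 and 66.1% in CKO 2. Such UMIs were not particular to members. Of the Meis2 cells without Olig2 that passed the same gates, only 207 of 413, 977 of 1416, 197 of 401 and 139 of 310 had at most 1. The counts for members were 29 of 73, 207 of 280, 32 of 64 and 20 of 59. In the members with at most 1 such UMI, Robo3 was at 1628, 1323, 1433 and 1720 CPM in control 1, control 2, CKO 1 and CKO 2, and in those with 2 or more it was at 298, 844, 530 and 312 CPM. Sst showed the same order in all 4 libraries (703, 828, 1106 and 1059 CPM against 402, 275, 388 and 291 CPM). This split was made after the data were seen and is given without a test. It also divides the cells by depth, with medians of 2827, 2309, 2712 and 2929 UMIs for members with at most 1 granule UMI and 4167, 3091, 8862 and 11848 UMIs for the others, and the part of depth was not tested. Because the label genes were lower in many members, the cells are called Olig2-positive cells or members below, not a single neuron type.

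Several lists of markers of other cell types held genes at 0. Sox10, Nkx2-2 and Gpr17 of the oligodendrocyte lineage were at 0 in all 4 libraries, all 6 endothelial and mural genes were at 0, and Ptf1a, Skor2 and Slc6a5 of inhibitory cerebellar cells were at 0. Nkx2-2 and Gpr17 were also at 0 in all other kept cells, and Sox10 in Olig2-negative Meis2 cells. The 7 oligodendrocyte lineage genes, Olig1 among them, summed to 49.4, 45.4, 25.0 and 26.4 CPM in members of control 1, control 2, CKO 1 and CKO 2. They summed to 24.0, 20.2, 14.7 and 19.2 CPM in Olig2-negative Meis2 cells and 25.1, 23.0, 13.8 and 19.6 CPM in other kept cells, lower in every library. Gad1 and Gad2, which make GABA, reached at most 4.78 CPM. The list of 11 inhibitory cell genes nevertheless summed to 370, 422, 967 and 582 CPM in members of control 1, control 2, CKO 1 and CKO 2, most of it from Pcp4, a calmodulin-binding protein of Purkinje cells, at 269, 385, 960 and 567 CPM. The 9 radial glia genes summed to 823, 409, 1037 and 1014 CPM, below the other kept cells in every library (1127, 587, 1638 and 1241 CPM), and to 556, 430, 972 and 800 CPM in Olig2-negative Meis2 cells. Erythroid genes summed to 713 CPM in the members of control 2 and to 0 to 24.7 CPM elsewhere, and microglia genes to 234 CPM in control 2 and 0 elsewhere. The part of these genes' source cells in the comparisons was not tested, except that the fits were repeated without cells that held 2 or more microglia marker UMIs. Slc17a6, the vesicular glutamate transporter of nuclei neurons, was at 233, 403, 319 and 148 CPM in control 1, control 2, CKO 1 and CKO 2. The summed level of the 12 granule lineage genes was 4541, 3123, 4019 and 4646 CPM in members and 4450, 3144, 3989 and 4545 CPM in the other kept cells. The levels in members and in the other cells were close in each library.

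Robo3 (ENSMUSG00000032128, chr9:37415669-37433246, minus strand) and Sst (ENSMUSG00000004366, chr16:23889573-23890958, minus strand) are the 2 genes that give the cells their label. The 250 bases before their RefSeq starts (GRCm38.p6, the same assembly as mm10) are shown because bHLH factors such as Olig2 bind E-boxes. The gene spans given above are from GENCODE and begin upstream of the RefSeq starts, so each window lies partly inside its gene span. Capitals mark E-boxes (CANNTG, the same on both strands) and, in Sst, the cAMP response element (TGACGTCA, the same on both strands); the sequences run 5′ to 3′ on the minus strand, chr9:37433176-37433425 and chr16:23890845-23891094.
Robo3: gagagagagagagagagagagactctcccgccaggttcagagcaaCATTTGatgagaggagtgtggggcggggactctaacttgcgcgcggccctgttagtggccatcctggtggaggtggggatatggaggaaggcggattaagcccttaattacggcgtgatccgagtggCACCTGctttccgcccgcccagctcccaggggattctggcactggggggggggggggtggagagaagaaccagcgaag
Sst: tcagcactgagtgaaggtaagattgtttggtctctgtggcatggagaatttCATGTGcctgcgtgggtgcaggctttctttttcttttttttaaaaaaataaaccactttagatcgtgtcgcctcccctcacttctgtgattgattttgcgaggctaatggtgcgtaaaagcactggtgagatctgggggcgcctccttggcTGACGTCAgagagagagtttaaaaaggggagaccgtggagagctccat
The Robo3 window holds 2 E-boxes and the Sst window 1. Of 32851 RefSeq promoter windows of this length, 66.2% hold at least 1 E-box, so the matches are at the common level, while 1.55% hold the cAMP response element. A match describes the letters in the window and not binding. A promoter entry was found for 5 of the 6 label genes.

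The label genes were chosen with these data known, so their levels against other cells are given as a description with no test. Robo3 was at 565, 1177, 822 and 516 CPM in the members of control 1, control 2, CKO 1 and CKO 2. In Olig2-negative Meis2 cells (2540 cells that passed the same gates with no Olig2 UMI and at least 2 Meis2 UMIs) it was at 351, 486, 321 and 356 CPM, and in all other kept cells at 106, 382, 134 and 65.6 CPM. The members were highest in every library. Sst was at 462, 660, 620 and 402 CPM in members, 306, 233, 109 and 190 CPM in Olig2-negative Meis2 cells and 93.3, 186, 51.6 and 26.9 CPM in all other kept cells. It was again highest in members throughout. Plxna2, a receptor for class 6 semaphorins, was at 94.2, 367, 119 and 85.8 CPM in members and 67.5, 153, 71.3 and 55.3 CPM in Olig2-negative Meis2 cells. Ebf1, a helix-loop-helix factor of differentiating neurons, and Nxph4, of the secreted neurexophilins, did not separate members from Olig2-negative Meis2 cells in every library. Ebf1 was at 734 against 889 CPM in control 1, and Nxph4 at 59.4 against 94.7 CPM in CKO 2, the higher value being in the Olig2-negative cells both times.

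**Figure D1:**
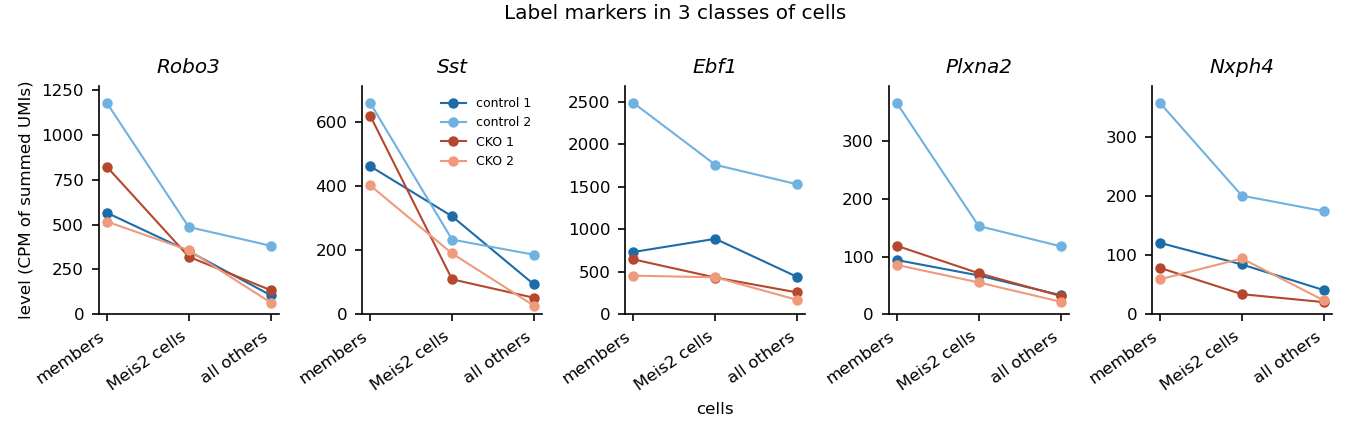
Level of each label gene (CPM of summed UMIs, linear axes from 0) in members, in Olig2-negative Meis2 cells and in all other kept cells; each line is 1 library. Robo3, Sst and Plxna2 are highest in members in all 4 libraries, and Ebf1 in control 1 and Nxph4 in CKO 2 are not.

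Shares of cells with a UMI depend on depth, so each cell was also thinned to 2000 UMIs, leaving out 940, 1786, 422 and 1099 shallower cells in control 1, control 2, CKO 1 and CKO 2. After thinning, Robo3 was seen in 45.2% of members in control 1 (95% Wilson interval 29.2 to 62.2), 66.7% in control 2 (58.9 to 73.6), 56.0% in CKO 1 (37.1 to 73.3) and 56.5% in CKO 2 (36.8 to 74.4). Without thinning the shares were 42.5%, 64.3%, 67.2% and 49.2%. In thinned Olig2-negative Meis2 cells the shares were 24.0%, 34.1%, 36.6% and 35.9%, and in thinned cycling cells without Meis2, taken as a measure of free RNA, 3.81%, 7.59%, 3.62% and 1.67%. Sst was seen in 35.5%, 34.6%, 20% and 34.8% of thinned members, and in 5.45%, 5.70%, 1.55% and 0.556% of the thinned cycling cells. The median depths before thinning were 3526, 3082, 6496 and 4456 UMIs for these members and 5374, 3478, 19143 and 14477 UMIs for the cycling cells. Both genes were therefore above the level of the cycling cells in each library. These intervals cover counting error only.

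At the threshold of the rule, cells with 1 Olig2 UMI lie just inside and cells with 0 that pass the other gates just outside. Robo3 was at 558, 1078, 717 and 318 CPM just inside in control 1, control 2, CKO 1 and CKO 2 and at 169, 450, 227 and 98.7 CPM just outside. In the 50 cells with 3 or more Olig2 UMIs it was at 831, 1326, 1492 and 1162 CPM. Sst went from 166, 621, 348 and 112 CPM at 1 UMI to 992, 1121, 950 and 1383 CPM at 3 or more. Lmo2, a LIM-only partner of bHLH factors, went from 15.3, 37.9, 43.5 and 40.0 CPM to 162, 150, 418 and 338 CPM. All 3 genes were higher in all 4 libraries in the cells with 3 or more Olig2 UMIs than in those with 1. In cells with 2 UMIs Robo3 was below its level at 1 UMI in control 1 and CKO 1 (447 and 589 CPM), and Sst in control 2 (384 CPM). In the remaining libraries both were above it. Zfhx3, a zinc-finger homeobox factor, was at 61.3, 259, 112 and 18.7 CPM at 1 UMI and at 23.1, 15.8, 67.8 and 7.36 CPM at 3 or more. Pax6, a granule lineage factor, was at 754, 197, 208 and 579 CPM at 1 UMI and at 185, 78.9, 11.3 and 338 CPM at 3 or more. Zfhx3 and Pax6 were lower at 3 or more UMIs than at 1 in all 4 libraries, while at 2 UMIs both were above their level at 1 in CKO 2 (20.9 and 857 CPM). The cells with 3 or more Olig2 UMIs number only 5, 28, 8 and 9, and are deeper, with medians of 4762, 4155, 10406 and 12648 UMIs against 3089, 2290, 3507 and 8626 UMIs, and depth and Olig2 level cannot be told apart here.

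**Figure D2:**
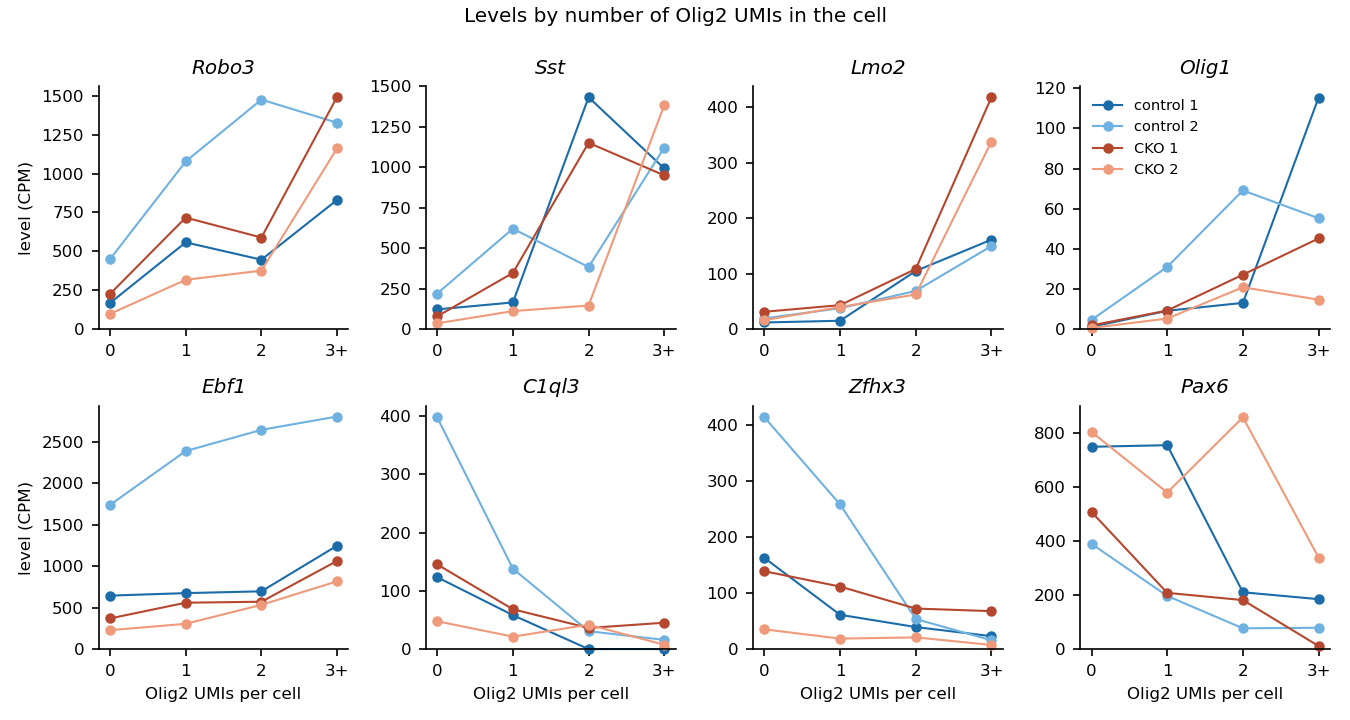
Level (CPM, linear axes from 0) of 8 genes in cells with 0, 1, 2 and 3 or more Olig2 UMIs that pass the other gates; each line is 1 library. Robo3, Sst, Lmo2 and Ebf1 are higher, and C1ql3, Zfhx3 and Pax6 lower, at 3 or more UMIs than at 1 in each library, while single steps go both ways.

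Members lay near each other in expression, though not in a closed group. Among the 20 nearest neighbours of a member within its library, found without the genes of the rule, 9.93%, 19.3%, 15.5% and 12.1% were members in control 1, control 2, CKO 1 and CKO 2. The members' shares of kept cells were 2.51%, 7.12%, 3.19% and 1.596%. Olig2-negative Meis2 cells had 4.36%, 7.42%, 6.31% and 4.32% members among their neighbours. In every library members had a larger share of members among their neighbours than these Meis2 cells, which passed the same gates. Most neighbours of a member were other cells. The shares of kept cells include cycling cells, which the rule keeps out of the members, and the label genes other than Olig2 were not left out of the search. The part of the gate, the label genes and depth in these shares was not tested.

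Members were then compared with the Olig2-negative Meis2 cells of the same library, which asks how Olig2-positive cells differ from other cells with Meis2. Sums of UMIs per library and class were tested with edgeR's quasi-likelihood test, with library as a block and calls at a Benjamini-Hochberg adjusted p under 0.05. Of 9566 genes tested, 169 (1.77%) were called, 70 higher in members (0.732%) and 99 lower (1.03%). Without control 2 the count was 122. Members were deeper than the comparison cells, with medians of 3208, 2497, 5641 and 10564 UMIs in control 1, control 2, CKO 1 and CKO 2. In the Olig2-negative Meis2 cells the medians were 2804, 2273, 3305 and 2685 UMIs. After thinning to 2000 UMIs, 127 of the 169 genes could be tested, and 48 were called in the same direction. The part of depth in the other calls was not tested. Since only the comparison cells had to carry Meis2, the fit was repeated on members with at least 2 Meis2 UMIs. These were 21 of 73, 179 of 280, 43 of 64 and 21 of 59 members in control 1, control 2, CKO 1 and CKO 2. There 125 of the 169 genes were called in the same direction, and values from it are given as Meis2-matched.

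Among transcription factors, members were marked by further bHLH and LIM-only genes. Olig1, the neighbour and close relative of Olig2, was at 20.2, 40.6, 19.2 and 9.89 CPM in members of control 1, control 2, CKO 1 and CKO 2 and at 1.26, 3.50, 2.39 and 0.532 CPM in Olig2-negative Meis2 cells. The groups did not overlap, and the log2 difference was 3.49 ± 0.37 (SE, edgeR's quasi-likelihood test, adjusted p = 1.57e-06; Meis2-matched 3.48). Lmo2 was at 44.9, 59.7, 121 and 110 CPM against 20.8, 15.6, 42.0 and 27.7 CPM, a log2 difference of 1.72 ± 0.17 (adjusted p = 2.95e-07, edgeR; Meis2-matched 2.06). It was higher in members in each of the 4 libraries. Of 16 bHLH genes tested from a list of 22, Olig2 left out, 5 were higher (Olig1, Neurod2, Neurod6, Tcf4 and Tcf12), against 0.732% of all genes, and Atoh1 was among those lower, with a list median of 0.27 against 0.01 for all genes tested. Neurod2 and Neurod6 are differentiation factors of excitatory neurons, Tcf4 and Tcf12 are the widely expressed E-protein partners of class II bHLH factors, and Atoh1 is the proneural factor of the rhombic lip. Neurod2 was higher by 0.66 ± 0.11 and was not called in the most intact cells (adjusted p = 0.0543, edgeR). Neurod6 (0.64 ± 0.13), Tcf4 (0.48 ± 0.11) and Tcf12 (0.41 ± 0.11) were not called without control 2 (adjusted p = 0.152, 0.25 and 0.252, edgeR). Tcf4 and Tcf12 also lost their calls without CKO 1 (adjusted p = 0.124 and 0.128, edgeR) and without CKO 2 (0.0529 and 0.172), and Neurod6 and Tcf12 with DESeq2 (adjusted p = 0.0922 and 0.181) and after thinning (0.391 and 0.401, edgeR). Scx, a bHLH factor of tendon, rose by 1.47 ± 0.32 and was not called without either control library (adjusted p = 0.0558 and 0.0976, edgeR). Of the LIM, POU, Iroquois and TALE factors 21 of 30 were tested, with Lmo2 and Lmo3 higher and Lhx9 and Pou2f2 lower. The list median was -0.17, and over all genes tested 0.732% were higher and 1.03% lower. Lmo3 was not called without control 2 (0.66, adjusted p = 0.296, edgeR).

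Some genes that mark excitatory nuclei neurons were lower in members. Of 12 tested from a list of 15, 5 were lower (Zfhx3, Zfhx4, Bnc2, Nr4a2 and Lhx9), against 1.03% of all genes, 7 did not pass and none was higher, with a list median of -0.41. Meis2 is itself on this list and was required of the comparison cells only, so the count cannot be told apart from that gate. It was not repeated in the Meis2-matched fit. Zfhx3 was at 53.9, 190, 96.0 and 16.5 CPM in members of control 1, control 2, CKO 1 and CKO 2 and at 502, 583, 268 and 158 CPM in Olig2-negative Meis2 cells. In every library the members were below, by 2.07 ± 0.19 on the log2 scale (adjusted p = 1.61e-07, edgeR; Meis2-matched -1.73, adjusted p = 1.64e-10). Zfhx4 fell by 1.44 ± 0.18 (Meis2-matched -1.42) and Bnc2 by 1.70 ± 0.29 (Meis2-matched -1.37). Zfhx4 was not called in the most intact cells (-0.88, adjusted p = 0.253, edgeR). Nr4a2, an orphan nuclear receptor, fell by 1.78 ± 0.38 and lost its call without control 1 (adjusted p = 0.105, edgeR), without control 2 (0.0703) and with DESeq2 (0.151). Lhx9, a LIM homeodomain factor of nuclei neurons, was 0.61 ± 0.15 lower on the log2 scale but -0.28 when Meis2-matched (adjusted p = 0.438, edgeR), and it lost its call without control 1, control 2 or CKO 2. Slc17a6 differed by 0.25 ± 0.13 (adjusted p = 0.475, edgeR), and neither of the 2 transmitter genes tested was called. In the members with 2 or more Olig2 UMIs Slc17a6 was higher by 0.58 (adjusted p = 0.0238, edgeR).

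Axon guidance genes differed in single members rather than as a family. Of 16 Slit, Robo, netrin and NELL genes tested from 19, the label gene Robo3 left out, Unc5a was higher. The list median was -0.07, and over all genes tested 0.732% were higher and 1.03% lower. Unc5a, a netrin receptor, was at 24.7, 31.1, 46.1 and 57.7 CPM in members and 26.5, 14.8, 19.1 and 30.9 CPM in Olig2-negative Meis2 cells, so that control 1 went the other way. Its log2 difference of 0.89 ± 0.22 was 0.70 and not called when Meis2-matched (adjusted p = 0.289, edgeR). Dcc, the netrin receptor of attraction, was at 539, 544, 610 and 549 CPM in members and differed by -0.08 ± 0.11 (adjusted p = 0.852, edgeR). Of 21 semaphorin, plexin and neuropilin genes tested from 25, the label gene Plxna2 left out, Sema6d was higher and Sema3e lower (list median -0.15). Sema6d, a ligand of class A plexins, was at 153, 382, 217 and 282 CPM against 137, 188, 135 and 236 CPM, higher in all 4 libraries by 0.60 ± 0.13 on the log2 scale (adjusted p = 0.00809, edgeR), and was not called without control 2 (0.41, adjusted p = 0.252). Sema3e, a secreted ligand, fell by 1.36 ± 0.31 and was not called when Meis2-matched (-1.13, adjusted p = 0.0732, edgeR).

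For peptide signalling, 5 of 21 neuropeptide and somatostatin receptor genes could be tested, the label gene Sst left out, and Sstr2 was higher (list median 0.52). Sstr2, a receptor for somatostatin, was at 139, 208, 257 and 140 CPM in members of control 1, control 2, CKO 1 and CKO 2 and at 115, 116, 183 and 121 CPM in Olig2-negative Meis2 cells. It was higher in each library, by 0.52 ± 0.12 on the log2 scale (adjusted p = 0.02, edgeR), and not called without control 2 (0.38, adjusted p = 0.316). Its call was kept in 10 of 15 alternatives. After thinning to 2000 UMIs, none of the 2 genes of this list that could be tested was called. Genes for making and storing peptides did not follow: of 11 tested from 13, 3 were lower and none higher, with a median of -0.28. Over all genes tested, 1.03% were lower and 0.732% higher. Pam, the amidating enzyme, was at 33.7, 77.7, 78.7 and 26.4 CPM against 175, 189, 103 and 75.0 CPM, lower in every library by 1.25 ± 0.18 (adjusted p = 0.000122, edgeR; Meis2-matched -1.02). Scg2, a granin of dense-core vesicles, fell by 1.41 ± 0.20 (Meis2-matched -1.30) and Pcsk2, a prohormone convertase, by 0.86 ± 0.17 (Meis2-matched -0.82). Pcsk2 lost its call without CKO 2 (-0.64, adjusted p = 0.0681, edgeR) and in cells with at most 1 granule marker UMI (-0.43, adjusted p = 0.374). In the 112 deepest and most intact members (4000 UMIs or more, mitochondrial share no higher than 5%), Pam differed by -0.36 and Pcsk2 by -0.74, and neither was called (adjusted p = 0.942 and 0.316, edgeR). None of 4 Ebf family genes tested and none of 15 neurexophilin and neurexin genes was called, Ebf1 and Nxph4 left out (list medians 0.37 and -0.25), and Nefl, a neurofilament gene, was the single call among 15 maturation genes (0.51 ± 0.12), lost without CKO 1 or CKO 2 (adjusted p = 0.192 and 0.247, edgeR) and after thinning (0.735). Pcp4 was higher than in Olig2-negative Meis2 cells (102, 257, 363 and 289 CPM) in every library, by 1.102 ± 0.13 (adjusted p = 5.63e-06, edgeR), and was not called after thinning (0.68, adjusted p = 0.11).

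Beyond the lists, the genes with the largest differences were taken by size. Higher in members in all 4 libraries were Ackr3, an atypical receptor for the chemokine CXCL12 (1.86 ± 0.34), Eya2, a transcriptional coactivator (1.83 ± 0.30), Tesc, a calcium-binding protein (1.71 ± 0.28), Zmat4, a zinc-finger gene (1.37 ± 0.30), Csrp1, a LIM protein (1.33 ± 0.30), and Syce2, a synaptonemal complex gene (1.31 ± 0.28). Tesc was at 18.0, 19.1, 59.5 and 26.4 CPM against 7.57, 3.77, 15.0 and 13.3 CPM. Without control 2, Eya2, Zmat4, Csrp1 and Syce2 were not called (adjusted p = 0.152, 0.578, 0.0976 and 0.0835, edgeR). C1ql3, a secreted synaptic organiser, had the firmest lower value, at 42.6, 103, 57.6 and 21.4 CPM in members and 382, 580, 286 and 239 CPM in Olig2-negative Meis2 cells. The groups did not overlap, and it fell by 2.70 ± 0.15 (adjusted p = 8.64e-12, edgeR; Meis2-matched -2.45). Fgf17, a growth factor of the isthmus and early cerebellum, fell by 2.83 ± 0.40, Grin3a, an NMDA receptor subunit, by 2.53 ± 0.45 and Rasd2, a small GTPase, by 2.04 ± 0.35. Of genes that act on the cell surface and matrix, Sulf2 (a heparan sulfate sulfatase) fell by 2.21 ± 0.26, Hs3st4 (a heparan sulfate sulfotransferase) by 2.05 ± 0.22, Cntnap5a by 2.17 ± 0.29 and Npnt, encoding nephronectin, by 2.08 ± 0.33. All of these were lower in all 4 libraries. Hs3st4 was not called in the most intact cells (-0.86, adjusted p = 0.574, edgeR), nor Cntnap5a and Grin3a with DESeq2 (adjusted p = 0.817 and 0.0581), nor Npnt after thinning (-1.44, adjusted p = 0.0833, edgeR). Across the alternatives that tested them, Olig1, Lmo2, Tesc, C1ql3, Zfhx3, Sulf2, Fgf17, Rasd2, Scg2 and Bnc2 were called under every one.

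**Figure D3:**
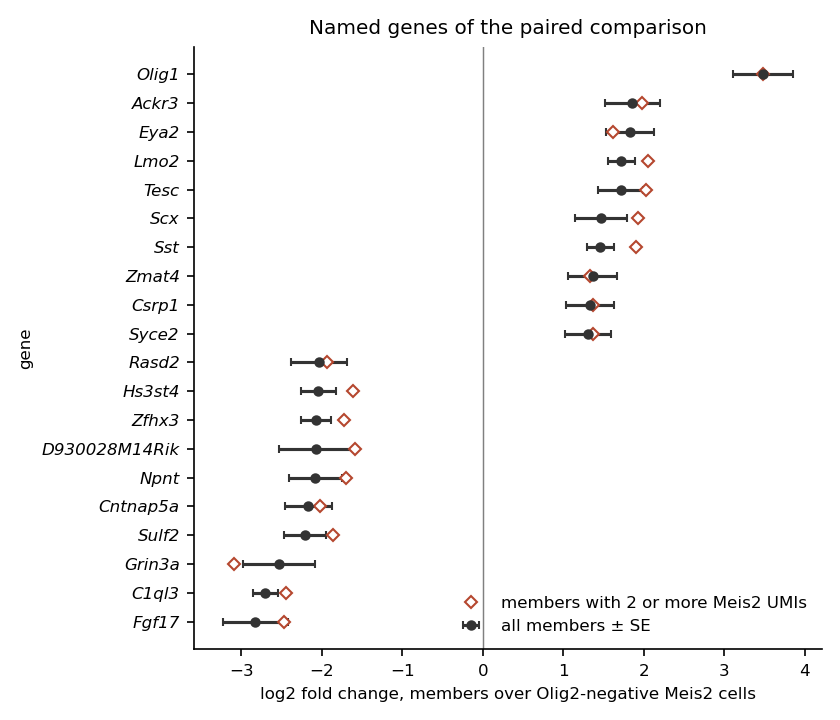
Log2 fold change of members over Olig2-negative Meis2 cells for the 20 genes taken by size (filled points) and the same for members with at least 2 Meis2 UMIs (open diamonds). Bars are ± SE of the edgeR fit to 4 paired libraries, worked out from its F statistic. All 20 lie on the same side of 0 in both fits, from Olig1 at 3.49 to Fgf17 at -2.83; Sst is a label gene and is shown as a description.

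Against all other kept cells, 1265 of 12408 genes (10.2%) were called by edgeR's quasi-likelihood test, 544 higher (4.38%) and 721 lower (5.81%). The genes with the largest lower values (Ska1, Spag5, Shcbp1, Bub1b, Aspm, Bub1, Kif2c, Neil3, Tacc3 and Ccnb1) belong mostly to mitosis and follow from the cell cycle gate, so nothing is read from them. The gate took cycling cells from the members and not from the other cells, so differences in maturation, progenitor and glial genes cannot be told apart from it either, and the values of this comparison are a description. Label genes left out, 10 of 15 maturation genes, 3 of 4 Ebf family genes and 5 of 23 semaphorin, plexin and neuropilin genes were higher. After thinning to 2000 UMIs only 2 maturation genes (Tubb3 and Ina), 1 Ebf gene (Ebf2) and 1 guidance gene (Nrp1) were called higher, and the maturation genes Gap43 and Syt1 were called lower. Nrp1, a receptor for class 3 semaphorins, was at 188, 332, 274 and 167 CPM in members and 70.8, 140, 36.5 and 18.4 CPM in all other kept cells, a log2 difference of 2.12 ± 0.22 (adjusted p = 1.08e-06, edgeR). Its values did not overlap. Hrk, a pro-apoptotic BH3-only gene, was at 53.9, 70.5, 67.2 and 110 CPM against 20.3, 22.0, 12.6 and 11.2 CPM (2.26 ± 0.23, adjusted p = 1.04e-06, edgeR). It was also higher than in Olig2-negative Meis2 cells by 1.11 ± 0.19 (adjusted p = 0.00114, edgeR), with control 1 going the other way (53.9 against 58.6 CPM). Hopx, a homeodomain-only gene, was at 13.5, 13.1, 154 and 36.3 CPM against 6.66, 4.50, 19.96 and 8.44 CPM (2.22 ± 0.27) and was not called in cells thinned to 2000 UMIs (1.21, adjusted p = 0.568, edgeR). Of 12 granule lineage genes Cntn2 was higher and Barhl1, Pax6, Atoh1 and Tlx3 lower, Atoh1 and Tlx3 not after thinning (adjusted p = 0.0515 and 0.6, edgeR). Of 12 nuclei neuron genes 6 were higher and after thinning 2 (Lhx2 and Slc17a6), with Zfhx3 lower. Without thinning Slc17a6 was higher by 1.51 ± 0.15 and Lhx2 by 1.61 ± 0.26, and Lhx2 was not called without CKO 1 (1.30, adjusted p = 0.0524, edgeR).

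For the genotypes, the targeted genes were read first. En2 (chr5:28165694-28172166) was at 166 and 184 CPM in the members of control 1 and control 2 and at 26.9 and 24.7 CPM in those of CKO 1 and CKO 2, with means of 175 ± 12.7 and 25.8 ± 1.5 CPM (SD, n = 2). Both CKO libraries were below both controls, and En2 fell by 2.75 ± 0.35 on the log2 scale (edgeR's quasi-likelihood test, adjusted p = 0.0143). En1 (chr1:120602418-120607992) was at 471 and 364 CPM in control and 326 and 317 CPM in CKO members, a log2 difference of -0.36 ± 0.34 (adjusted p = 0.904, edgeR). The part of En1 removed by Cre is not given in the sources used here, and 3′ tags outside it would not show the deletion.

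Within members 7714 genes were tested and 2 were called (0.0259%), 1 lower (En2, 0.013%) and 1 higher (Rflna, 0.013%), and 516 had an unadjusted p under 0.05. Rflna, encoding the filamin-binding refilin A, was at 0 and 3.58 CPM in control 1 and control 2 (0 and 3 UMIs) and at 184 and 47.8 CPM in CKO 1 and CKO 2 (96 and 29 UMIs). The groups did not overlap, and the fitted log2 difference of 5.53 ± 0.82 (adjusted p = 0.0416, edgeR) depends on the prior count for the empty library. In Olig2-negative Meis2 cells Rflna was at 13.9 and 3.77 CPM in control and 65.5 and 38.8 CPM in CKO, and the difference between the CKO effects in both classes was not called (2.63 ± 0.73, adjusted p = 0.246, edgeR). Neither gene was called without CKO 1 (En2 -2.79, adjusted p = 0.0994; Rflna 4.30, adjusted p = 0.152; edgeR) or with the replicate number as a block (adjusted p = 0.0673 for both, edgeR). Neither was called in the most intact cells (adjusted p = 0.404 and 1, edgeR). En2 also lost its call after thinning (-1.98, adjusted p = 0.133) and with at most 1 granule marker UMI (-2.24, adjusted p = 0.0573), and Rflna with DESeq2 (adjusted p = 0.092) and with 2 or more Olig2 UMIs (adjusted p = 0.0906, edgeR). The count of calls rose to 182 without control 1, 20 without control 2 and 33 without CKO 2, and was 0 without CKO 1.

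None of the label genes was called between genotypes. Robo3 was at 565 and 1177 CPM in control and 822 and 516 CPM in CKO members, and the groups overlapped (-0.37 ± 0.44, adjusted p = 0.92, edgeR). Sst, at 462 and 660 against 620 and 402 CPM, overlapped too (-0.13 ± 0.38, adjusted p = 0.973, edgeR). Nxph4 was at 121 and 358 CPM in control and 78.7 and 59.4 CPM in CKO members, without overlap, and did not pass the test (-1.81 ± 0.45, adjusted p = 0.282, edgeR). Without control 1 it did (-2.34, adjusted p = 1.46e-05, edgeR), and without the low-count filter (adjusted p = 0.000647), and without control 2 the difference was -0.80. Ebf1 and Plxna2 differed by -1.54 ± 0.53 and -1.19 ± 0.49 (adjusted p = 0.565 and 0.674, edgeR) and both were highest in control 2. Without control 1 both passed (adjusted p = 0.000542 and 0.00177, edgeR), Ebf1 passed after thinning (-1.55, adjusted p = 0.00964) and without the low-count filter (adjusted p = 0.0426), and without control 2 the differences were -0.40 and 0.13. Of 9 genes of the p53 and apoptosis list tested none was called (median 0.23 against 0.00 for all genes tested). The same held for 14 bHLH, 13 Slit and Robo and 10 nuclei neuron genes (medians -0.21, -0.15 and 0.20). Of all genes tested only 0.0259% were called, so the absence of calls in lists this small says little about their genes. Pcsk2, at 164 and 154 CPM in control and 28.8 and 44.5 CPM in CKO members, lay just outside the threshold (-2.08 ± 0.34, adjusted p = 0.0512, edgeR; DESeq2 adjusted p = 0.0224). It was named after its values were seen.

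**Figure D4:**
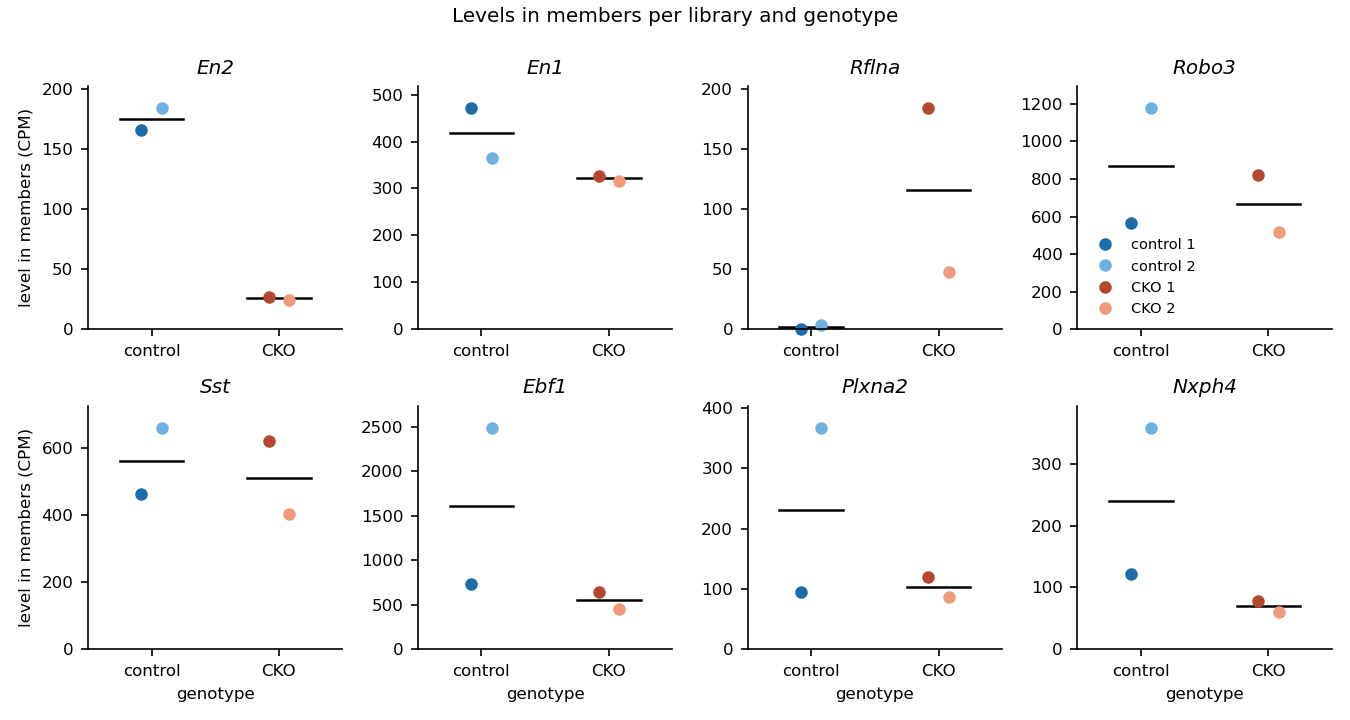
Level in members (CPM, linear axes from 0) per library for both targeted genes, Rflna and the label genes; points are libraries and bars the mean of 2. En2 is lower and Rflna higher in both CKO libraries, Nxph4 does not overlap between genotypes but did not pass the test, and Robo3 and Sst overlap.

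The CKO effect in members was also set against the CKO effect in Olig2-negative Meis2 cells, in 1 model with an interaction term. Of 10298 genes 4 were called (0.0388%), C1ql4 with a higher effect in members (0.00971%) and Crabp1, Dqx1 and Grn with a lower one (0.0291%), and 426 had an unadjusted p under 0.05. C1ql4, a secreted relative of C1ql3, was at 0 and 21.5 CPM in control and 263 and 14.8 CPM in CKO members, so its high value was that of CKO 1 alone. None of the 4 was called by DESeq2, and none of the label genes was called (Sst 0.71 ± 0.25, adjusted p = 0.644, edgeR).

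Members made up 2.51% of kept cells in control 1 (95% Wilson interval 2.00 to 3.14), 7.12% in control 2 (6.36 to 7.97), 3.19% in CKO 1 (2.51 to 4.05) and 1.596% in CKO 2 (1.24 to 2.05). The control mean was 4.82% ± 3.26 and the CKO mean 2.39% ± 1.13 (SD, n = 2), and the groups overlapped. The difference of -2.42 percentage points gave p = 0.667 in a two-sided exact permutation test over the 4 libraries, whose smallest possible p is 0.33. It rested on control 2: without that library it was -0.115 points. After thinning to 2000 UMIs the shares were 1.57%, 7.13%, 1.58% and 0.885%, again with an overlap. Fewer Olig2-positive cells and less Olig2 RNA per cell cannot be told apart by this rule. Among Meis2 cells that passed the gates, members were 4.84%, 11.2%, 9.68% and 6.34% in control 1, control 2, CKO 1 and CKO 2, with a difference of -0.0161 points (exact permutation p = 1). That difference was -2.55 points after thinning and -4.90 points in the most intact cells (exact permutation p = 0.667 for both). The shares of thinned members with a UMI of each label gene differed between genotypes by 0.347 points for Robo3, -7.67 for Sst, -14.7 for Ebf1, -8.34 for Plxna2 and -22.9 for Nxph4 (5 comparisons, exact permutation p = 1, 0.667, 0.667, 1 and 0.33, and all 1 after Benjamini-Hochberg adjustment).

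**Figure D5:**
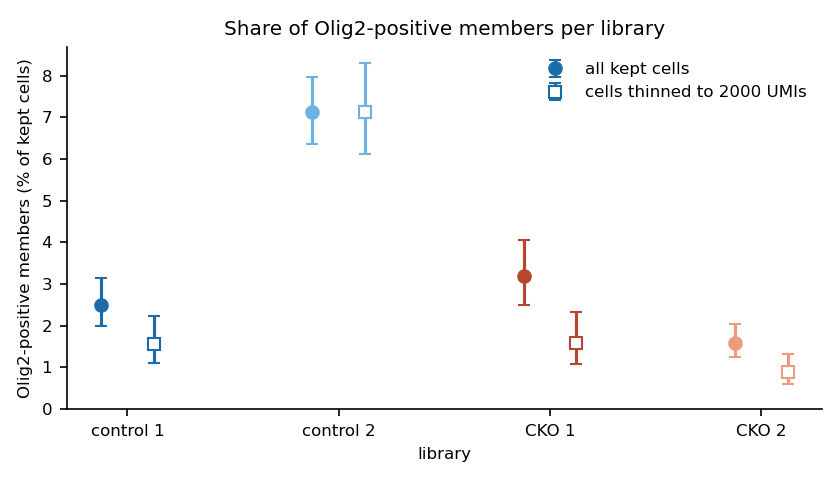
Members as a percentage of kept cells in each library (filled circles) and after thinning every cell to 2000 UMIs (open squares), with 95% Wilson intervals. Control 2 stands at 7.12% and 7.13%, and the other 3 libraries lie between 0.885% and 3.19%.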

How the data were processed

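Single-cell RNA-seq libraries of sorted tdT-positive E14.5 cerebellar cells, 2 control and 2 CKO, were used. The deposited values are raw UMI counts per gene and barcode, made with Cell Ranger 5.0.0 on mm10 per the submitters' processing notes; the annotation release is not given in the sources used here. Doublets were scored with Scrublet in scanpy 1.11.5 and were removed only in an alternative. UMI counts were summed per library and class and tested with edgeR 4.0.16 in R 4.3.3 (quasi-likelihood test, TMM, filterByExpr, Benjamini-Hochberg), with library as a block where classes were compared; DESeq2 1.42.0 was an alternative. Shares were compared by exact permutation of libraries. The tests were also run on simulated counts that had the same extra spread for all genes. For the genotype comparison no further difference between libraries was simulated, so that run does not cover the measured spread between the pools. Members and gene lists were chosen with earlier results of these data known. Genes were named if called, changed the same way in every library and at 10 CPM or more, up to 10 per direction by size, plus the label genes, the called list genes and up to 4 highest per list, of which the text gives a selection; Pcsk2 between genotypes was added after its values were seen. The label genes were part of each fit across all genes, but their tests against other cells are not used and list counts against other cells leave them out. Replicate numbers were not stated to pair libraries. The result of 1 listed gene is not reported here.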

Additional observations from a re-analysis of the deposited data

Results flagged for a closer look

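For 4 genes the CKO effect in Olig2-positive members differed from that in Olig2-negative Meis2 cells by the interaction term of edgeR's quasi-likelihood test. C1ql4 had a log2 difference of 2.51 (adjusted p = 7.56e-07), at 0, 21.5, 263 and 14.8 CPM in members of control 1, control 2, CKO 1 and CKO 2 and 44.1, 125, 219 and 72.9 CPM in the Meis2 cells, and 0.55 without CKO 1 (adjusted p = 1, edgeR). Crabp1 had -5.09 (adjusted p = 0.0126, edgeR), at 15.7, 4.78, 1.92 and 0 CPM against 15.1, 7.53, 71.0 and 10.6 CPM. It lost its call without control 1 (adjusted p = 0.368) or CKO 1 (adjusted p = 1), and was -0.70 in members with at most 1 granule marker UMI. Dqx1 had -3.77 (adjusted p = 1.04e-09, edgeR), at 2.24, 65.7, 3.84 and 19.8 CPM against 15.1, 9.95, 14.3 and 81.4 CPM, and 0.62 without control 2, the library that holds its high value in members. Grn had -2.98 (adjusted p = 0.0321, edgeR), at 24.7, 38.2, 1.92 and 6.60 CPM against 17.0, 18.3, 17.4 and 20.2 CPM. In cells with fewer than 2 microglia marker UMIs it was -2.26 (adjusted p = 0.537, edgeR).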

How the results depend on the processing

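Between genotypes within members, the count of genes called (2) was 7 with DESeq2, 14 after thinning, 105 without the low-count filter, 0 in the most intact cells, 5 in members with at most 1 granule marker UMI and 0 to 182 with 1 library left out. With the replicate block it was 0. Same-numbered libraries deviated in opposite directions (r = -0.25 across 7714 genes, which are not independent replicates), and with the crossed replicate block, added after seeing the data, 128 genes were called. Against Olig2-negative Meis2 cells, the count (169) was 60 with DESeq2, 56 thinned, 297 unfiltered, 65 in the most intact cells, 292 with ungated comparison cells and 120 to 178 with 1 library left out. For the interaction (4) it was 0 with DESeq2, 1 thinned, 0 intact, 9 with few granule UMIs and 2 to 17 with 1 library left out. Against all other kept cells (1265) it was 222 thinned and 626 to 1473 with 1 library left out. Signs turned after thinning against all other cells for Cck (-0.25), Dcc (-0.12), Nefm (-0.026) and Stmn2 (-0.018), and against Meis2 cells for Slc17a6 (-0.14). Dcc against Meis2 cells, never called, was 0.049 intact, 0.20 ungated and 0.14 Meis2-matched. Between genotypes, En1 was 0.29 thinned. Robo3 was 0.081 thinned, 0.038 with few granule UMIs and -0.78 to 0.26 with 1 library left out. Sst was 0.42 with few granule UMIs and -0.46 to 0.17 with 1 library left out. Plxna2 was -1.81 to 0.13 and the Dqx1 interaction -4.71 to 0.62 with 1 library left out. The share of Meis2 cells differed by 0.584 points with 2 or more Olig2 UMIs, -2.55 thinned to 2000 UMIs, -1.85 thinned to 1000 UMIs, -4.90 in intact cells and -3.21 to 3.18 with 1 library left out. With the crossed block Ebf1 and Nxph4 were called between genotypes (edgeR adjusted p = 0.0259 and 0.000203). Shares of members with a UMI differed by -10.4 to 11.1 points for Robo3, -29.8 to 0.370 for Ebf1 and -22.5 to 5.79 for Plxna2 (unthinned 0.153). The causes of these changes were not tested. Of 641 alternative values of 46 named genes against Olig2-negative Meis2 cells, 525 kept their side of the threshold and direction.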
